A study of Mus musculus with 6 samples.

Results

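The epithelial-mesenchymal transition (EMT) factors and mesenchymal state genes examined here are Snai1, Snai2, Twist1, Twist2, Zeb1, Zeb2, Prrx1, Vim and Cdh2, chosen by name. Of these 9 genes, 8 had a row among the 16426 genes of the table and Twist2 was not analysed here. The RNA is that of 4T1-LM3, a line of the 4T1 family of mouse mammary carcinoma cells. In 3 libraries the cells had received conditioned medium (CM) of matrix fibroblasts (MFs) described as Tdo2high, that is, rich in the tryptophan-degrading enzyme tryptophan 2,3-dioxygenase, and in 3 libraries a control CM whose source the labels do not give. All 6 libraries are of 1 line with no genotype change given, the length of exposure is not given in the sources used here, and no source says whether replicates were grown apart, so a p-value here reflects only how far these 6 samples scatter, and that scatter may be technical. Levels are FPKM, which scale fragments by transcript length and by the size of the library. Levels of different genes can thus be compared, as far as the transcript lengths used hold.

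EMT is the loss of epithelial junctions and polarity and the gain of a motile, mesenchymal state. It is driven by repressors of the SNAIL and ZEB zinc finger families and by TWIST basic helix-loop-helix factors, which bind E-boxes (short CANNTG motifs) and silence epithelial genes such as Cdh1, the gene of E-cadherin. In carcinoma cells the programme is often partial, with epithelial and mesenchymal genes active side by side, and it has been tied to invasion and spread to other organs.

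Summed FPKM were 444217 to 445209 with Tdo2high MFs CM and 438603 to 447415 with control CM. A gene was tested when at least 3 libraries reached 1 FPKM, which left 10804 genes. By limma, 801 of them (7.41%) passed an adjusted p of 0.05, with 362 higher and 439 lower with Tdo2high MFs CM (455 higher and 367 lower after scaling by the median of ratios).

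The promoters of the 4 members that reached the level for testing are shown first. Each line gives the 250 bases before the RefSeq start site on GRCm38.p6, 5′ to 3′ on the strand of the gene, from the start upstream to position -1. Capitals mark every match, on either strand, to CAGGTG (the E-box favoured by SNAIL and ZEB factors), CATATG or CATCTG (E-boxes of TWIST factors), GCGTG (the core of the element bound by the aryl hydrocarbon receptor, for which kynurenine is a ligand) and TGACNNNGC (the core of the antioxidant response element). The windows are chr2:167537945-167538194, plus strand, for Snai1, chr12:33957421-33957670, plus strand, for Twist1, chr2:45117443-45117692, minus strand, for the outermost start of Zeb2, and chr2:13574061-13574310, plus strand, for Vim.
Snai1: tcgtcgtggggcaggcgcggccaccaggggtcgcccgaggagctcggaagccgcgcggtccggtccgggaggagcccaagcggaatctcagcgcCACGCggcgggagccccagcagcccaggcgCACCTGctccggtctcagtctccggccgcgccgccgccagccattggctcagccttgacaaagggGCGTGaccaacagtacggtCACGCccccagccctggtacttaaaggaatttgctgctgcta
Twist1: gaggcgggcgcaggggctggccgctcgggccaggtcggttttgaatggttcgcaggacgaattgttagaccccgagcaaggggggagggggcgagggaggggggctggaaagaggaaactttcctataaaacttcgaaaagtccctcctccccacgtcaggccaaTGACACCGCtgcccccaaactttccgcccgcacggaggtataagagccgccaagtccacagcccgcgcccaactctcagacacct
Zeb2: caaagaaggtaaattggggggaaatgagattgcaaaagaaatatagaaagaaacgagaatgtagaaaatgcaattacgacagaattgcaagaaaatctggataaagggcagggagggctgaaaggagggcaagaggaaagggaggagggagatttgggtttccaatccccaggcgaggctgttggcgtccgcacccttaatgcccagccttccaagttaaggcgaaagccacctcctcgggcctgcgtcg
Vim: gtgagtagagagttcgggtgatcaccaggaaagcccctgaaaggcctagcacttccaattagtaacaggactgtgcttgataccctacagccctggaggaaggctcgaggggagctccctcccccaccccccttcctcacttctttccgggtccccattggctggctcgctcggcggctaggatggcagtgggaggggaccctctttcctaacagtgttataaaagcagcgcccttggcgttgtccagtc

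The Snai1 window held CACCTG, the reverse complement of CAGGTG, from position -126 to -121. Among all 32851 RefSeq promoter windows of this length, 17.2% held CAGGTG on either strand. The Snai1 window also held GCGTG at 3 places, counting either strand. The motif was found at least once in 28.2% of windows, and the share with 3 matches was not computed. The Twist1 window held no E-box of these kinds and 1 match to TGACNNNGC, from -85 to -77, a motif found in 10.2% of windows. CATATG and CATCTG were found in 3.46% and 14.4% of windows and in none of these 4. The Vim window and this Zeb2 window held no match to any of the motifs, and of the other 3 annotated starts of Zeb2 the windows of 2, which overlap, held GCGTG at 1 shared site. A match is a string of letters and does not show binding, and a link between motifs and changes in level was not tested. The aryl hydrocarbon receptor and antioxidant motifs were chosen after values were seen. The GC content was 70.0% for Snai1, 62.4% for Twist1, 49.6% for Zeb2 and 58.4% for Vim, against a median of 52.4% over all windows.

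With either medium, the line had a vimentin-rich profile with N-cadherin mRNA near 0. Among the members, the EMT factors expressed were Twist1, Snai1 and Zeb2. Vim, the intermediate filament of mesenchymal cells, averaged 1224 ± 28.7 FPKM with Tdo2high MFs CM and 1274 ± 53.0 FPKM with control CM (SD, n = 3 each), and ranked 36 and 28 of 16426 genes by mean level. Twist1, Snai1 and Zeb2 lay between 10.7 and 28.3 FPKM in every library. Zeb1, Prrx1, Cdh2 and Snai2 stayed below 1 FPKM in all 6 libraries, at most at 0.67 FPKM, and were not tested. The 4 tested members passed 1 FPKM in all 6 libraries, so none was tested through 1 group alone.

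**Figure D1:**
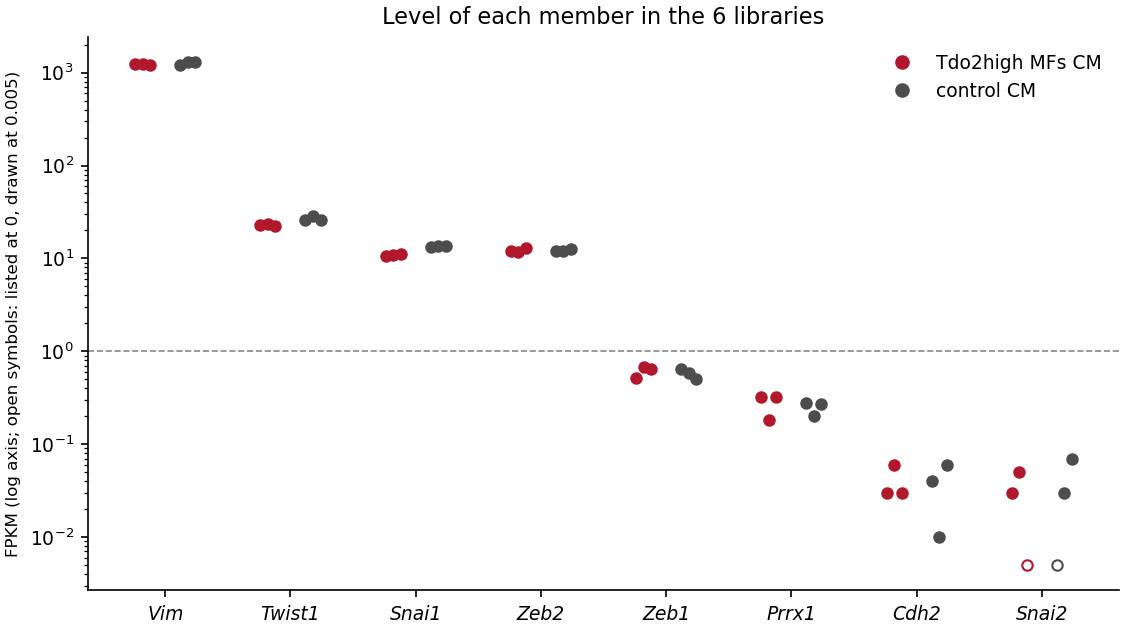
FPKM of the 8 members with values (y axis, log scale) in each library with Tdo2high MFs CM (red, left of each pair) and control CM (grey, right); the dashed line is the 1 FPKM used for testing. Vim stands at 1195 FPKM or above, Twist1, Snai1 and Zeb2 between 10.7 and 28.3 FPKM, and Zeb1, Prrx1, Cdh2 and Snai2 below 1 FPKM with either medium.

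Snai1 and Twist1 fell with Tdo2high MFs CM, and neither Zeb2 nor Vim passed the test. That is 2 of 4 tested members called lower and none higher, where 4.06% of all tested genes were called lower and 3.35% higher. At an unadjusted p under 0.05 by limma the count of members was the same, 2 lower and 0 higher, where 14.1% of all tested genes were lower and 9.68% higher at that threshold (23.7% in either direction). The groups did not overlap for these 2 genes, as for 17.5% of all tested genes in that direction. The median log2 fold change of the 4 was -0.14, against -0.01 over all tested genes. Fold changes are differences of mean log2(FPKM + 1), Tdo2high MFs CM minus control CM. In bulk RNA, fewer cells carrying a transcript and less transcript per cell cannot be told apart.

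Snai1 encodes SNAIL, a zinc finger repressor of E-cadherin (gene number 20613, chromosome 2, 167538195 to 167542814 on GRCm38.p6). It had 10.7, 10.9 and 11.3 FPKM with Tdo2high MFs CM, against 13.1, 13.5 and 13.7 FPKM with control CM. Every library with Tdo2high MFs CM lay below every library with control CM. The mean was 0.817 of that with control CM and the log2 fold change was -0.27 ± 0.04 (SE, 95% interval -0.36 to -0.18, adjusted p = 0.00411 by limma). Among the 439 genes called lower this was the fall at rank 98, and by level the gene stood at rank 6310 with Tdo2high MFs CM and at rank 5625 with control CM. Over 16 alternative settings the log2 fold change of Snai1 ran from -0.29 to -0.25, and the adjusted p did not exceed 0.0213.

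Its paralog Snai2 (gene number 20583, chromosome 16, 14705852 to 14709395) encodes SLUG, a repressor with the same E-box preference. Snai2 was listed at 0.03, 0.05 and 0 FPKM with Tdo2high MFs CM, against 0, 0.03 and 0.07 FPKM with control CM. Of this pair only Snai1 reached 1 FPKM with either medium.

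Twist1, a basic helix-loop-helix factor of mesoderm formation (gene number 22160, chromosome 12, 33957671 to 33959831), was the most abundant factor of the set. It had 23.1, 23.6 and 22.4 FPKM with Tdo2high MFs CM, against 26.1, 28.3 and 26.1 FPKM with control CM. The groups did not overlap, and control CM replicate 2 was the highest library. The mean with Tdo2high MFs CM was 0.857 of that with control CM, and the log2 fold change was -0.21 ± 0.04 (SE, 95% interval -0.30 to -0.12, adjusted p = 0.0135 by limma), at rank 192 among the falls. Without Tdo2high MFs CM replicate 3 the call of Twist1 ended at an adjusted p of 0.0511 by limma, with a log2 fold change of -0.19.

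The ZEB factors, zinc finger and homeodomain repressors that bind paired E-boxes, were present mainly as Zeb2 (gene number 24136, chromosome 2, 44983512 to 45117442). Zeb2 had 12.1, 11.6 and 13.0 FPKM with Tdo2high MFs CM, against 12.1, 12.2 and 12.5 FPKM with control CM. The groups overlapped, and the log2 fold change was -0.0015 (95% interval -0.11 to 0.10, adjusted p = 0.988 by limma). The span of Zeb2 overlaps an antisense transcript, Zeb2os, over 2950 bases. Where reads are counted without strand, those within this stretch cannot be assigned to either gene. Zeb1 stood at 0.51, 0.67 and 0.65 FPKM with Tdo2high MFs CM, against 0.64, 0.59 and 0.50 FPKM with control CM. The ratio of Zeb2 to Zeb1 within a library averaged 20.4 ± 3.22 with Tdo2high MFs CM and 21.5 ± 3.19 with control CM (SD, n = 3 each; exact two-sided permutation test, p = 0.7), with overlapping groups.

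Prrx1, a homeobox factor of limb and craniofacial mesenchyme that acts as an EMT inducer, had 0.32, 0.18 and 0.32 FPKM with Tdo2high MFs CM, against 0.28, 0.20 and 0.27 FPKM with control CM. Cdh2, the gene of N-cadherin, whose gain at the cell surface is a hallmark of a full EMT, had 0.03, 0.06 and 0.03 FPKM with Tdo2high MFs CM, against 0.04, 0.01 and 0.06 FPKM with control CM. The groups overlapped for Snai2, Zeb1, Prrx1 and Cdh2, and no difference was detectable. In a fit with no filter on low values, their adjusted p ran from 0.825 for Zeb1 to 0.944 for Cdh2 by limma.

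Vim (gene number 22352, chromosome 2, 13574311 to 13582826) had 1226, 1252 and 1195 FPKM with Tdo2high MFs CM, against 1212, 1306 and 1303 FPKM with control CM. The groups overlapped, since control CM replicate 1 lay below 2 of the 3 libraries with Tdo2high MFs CM. The log2 fold change of Vim was -0.06 ± 0.04 (SE, 95% interval -0.14 to 0.03, adjusted p = 0.423 by limma). The interval thus reaches to a fall of 0.14 on this scale.

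**Figure D2:**
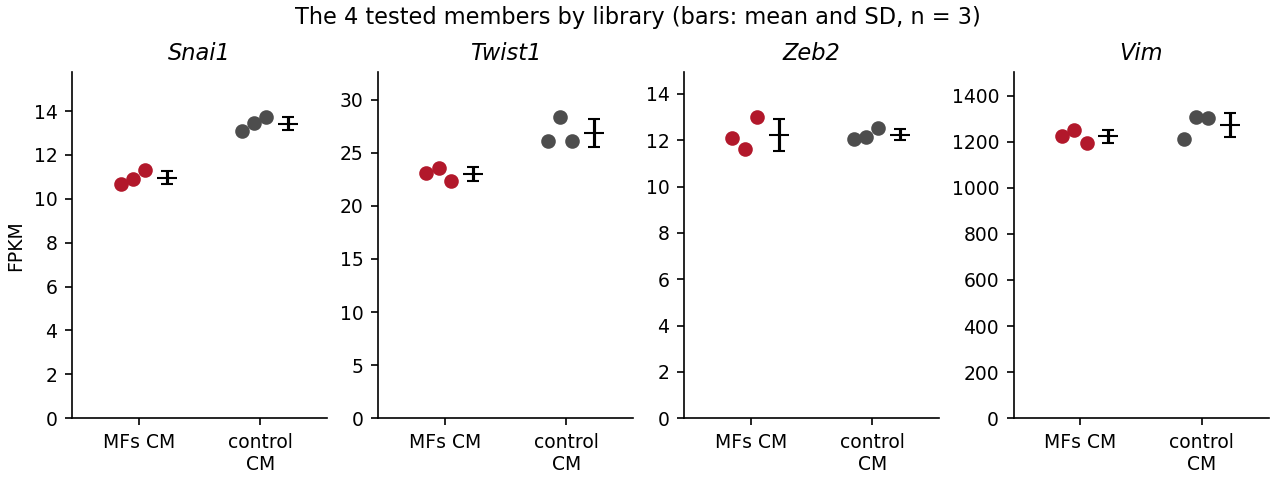
FPKM (y axis, from 0) of Snai1, Twist1, Zeb2 and Vim in the 3 libraries with Tdo2high MFs CM (red) and the 3 with control CM (grey), with mean and SD. The groups of Snai1 and Twist1 do not overlap, and those of Zeb2 and Vim do.

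The order of the levels was the same with either medium except for 1 pair. With Tdo2high MFs CM it ran Vim, Twist1, Zeb2, Snai1, Zeb1, Prrx1, Cdh2 and Snai2, and with control CM Snai1 stood above Zeb2. The values of neighbours in these orders did not overlap, apart from those of Cdh2 and Snai2. Within a library, the ratio of Snai1 to Zeb2, which no scaling of libraries can alter, was 0.882, 0.939 and 0.869 with Tdo2high MFs CM, against 1.09, 1.11 and 1.10 with control CM. By FPKM, Zeb2 was thus above Snai1 in each library with Tdo2high MFs CM and below it in each with control CM. With ratios this near 1, which gene is above depends on the transcript lengths used for FPKM, which are not given. The ratio of Twist1 to Zeb2 averaged 1.89 ± 0.156 with Tdo2high MFs CM and 2.19 ± 0.126 with control CM (SD, n = 3 each), also with no overlap. The ratio of Snai1 to Twist1 averaged 0.477 ± 0.0245 with Tdo2high MFs CM and 0.501 ± 0.0253 with control CM (SD, n = 3 each), with overlapping groups.

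Summed over the 6 factors with values, FPKM came to 46.8, 47.1 and 47.6 with Tdo2high MFs CM, against 52.2, 54.8 and 53.2 with control CM. Of that sum, Twist1 made up 48.8% ± 1.68 with Tdo2high MFs CM and 50.3% ± 1.34 with control CM (SD, n = 3 each). Snai1 made up 23.3% ± 0.431 with Tdo2high MFs CM and 25.2% ± 0.612 with control CM. Zeb2 made up 26.0% ± 1.29 with Tdo2high MFs CM and 23.0% ± 0.690 with control CM. The shares of Snai1 and Zeb2 did not overlap between the groups and those of Twist1 did. For the sum and for the ratios of Snai1 and Twist1 to Zeb2, the exact two-sided permutation test gave p = 0.1, the smallest that 3 libraries against 3 allow. Adjusted by Benjamini-Hochberg over the 7 ratios computed, the permutation p of each of these ratios was 0.175. The p of the sum was not adjusted. The ratios were chosen after values were seen. The sum, shares and ratios restate the levels of Snai1, Twist1 and Zeb2 given above and are not further evidence.

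**Figure D3:**
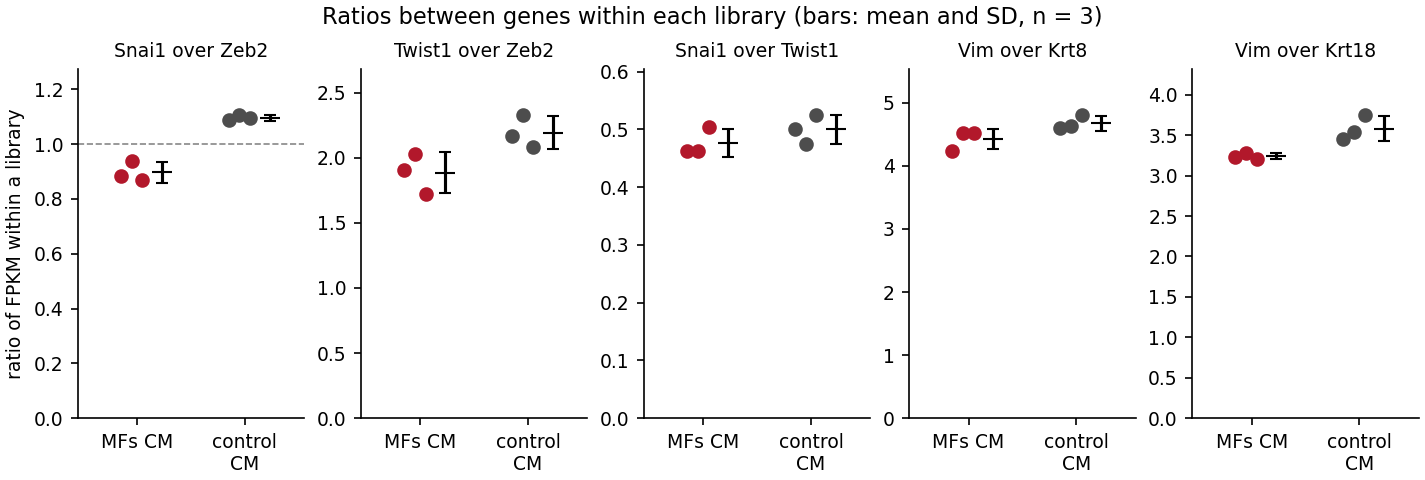
Ratios of FPKM within each library (y axes, from 0) with Tdo2high MFs CM (red) and control CM (grey), with mean and SD of 3 libraries. Snai1 over Zeb2 lies below 1 in all libraries with Tdo2high MFs CM and above 1 in all with control CM, and Snai1 over Twist1 overlaps between the groups.

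The genes whose profile over the 6 libraries was most like that of a member were sought among tested genes within 3-fold of its level, by the root mean square difference of the centred log2(FPKM + 1) values. Among 6797 genes the nearest to Snai1 were Lrch4 (0.026), Prim1 (0.029), which encodes the primase subunit of DNA replication, and Tmem86a (0.029). Among 6267 genes the nearest to Twist1 were Shmt2 (0.016), the mitochondrial serine hydroxymethyltransferase, Rarg (0.022), a retinoic acid receptor, and Dmrta2 (0.023). All 6 of these were called lower. Zeb2 was nearest to Pfkm (0.010), Kif14 (0.010) and Abhd13 (0.012), and Vim to Actb (0.021), Eef2 (0.023) and Gapdh (0.031) among 153 genes, none of them called. These genes were picked for a profile close to that of the member, so a call like that of the member follows largely from the choice. The points share their libraries and group structure, so likeness is a description only.

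TWIST factors act as pairs with E proteins, and ID proteins block these partners. Of 6 tested genes of this group, 1 rose and 2 fell, with a median log2 fold change of -0.09 (50.0% called, against 7.41% of all tested genes). Id2 had 42.5, 41.8 and 40.8 FPKM with Tdo2high MFs CM, against 30.0, 30.9 and 29.2 FPKM with control CM (log2 fold change 0.46 ± 0.03 SE, adjusted p = 3.70e-05 by limma). Id3 had 9.38, 7.65 and 7.62 FPKM with Tdo2high MFs CM, against 10.02, 10.37 and 10.07 FPKM with control CM (-0.28, adjusted p = 0.0378 by limma). The E protein gene Tcf3 averaged 33.9 ± 0.887 FPKM with Tdo2high MFs CM and 37.3 ± 1.29 FPKM with control CM (SD, n = 3 each; adjusted p = 0.0445 by limma). The other E protein genes, Tcf4 (0.03) and Tcf12 (-0.05), did not pass. The calls of Id3 and Tcf3 ended in 9 and 11 of 16 alternatives and that of Id2 in none. Id3 did not pass without any 1 library other than Tdo2high MFs CM replicate 1 (adjusted p = 0.0873 to 0.126 by limma), and Tcf3 did not pass without any 1 library (0.0557 to 0.139).

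SNAIL, ZEB and TWIST factors silence genes through chromatin enzymes that they recruit. Of 25 tested genes of this group, 2 fell and none rose, 8% against 7.41% of all tested genes. The 2 were Ajuba, a LIM protein that bridges SNAIL to its partners (log2 fold change -0.16), and Dnmt1, the maintenance DNA methyltransferase (-0.15). Kdm1a, the histone demethylase that docks on the SNAIL amino terminus, had 53.5 ± 0.483 FPKM with Tdo2high MFs CM and 53.3 ± 1.53 FPKM with control CM (SD, n = 3 each). Of the most abundant genes of the group, the deacetylase gene Hdac1 (-0.02) and the remodeller gene Chd4 (0.03) had overlapping groups, and Mta1, of the same NuRD complex, lay lower without overlap and did not pass (-0.10, adjusted p = 0.154 by limma). The calls of Ajuba and Dnmt1 ended in 7 and 4 of 16 alternatives, among them, for Ajuba, the fit that left out control CM replicate 1 (limma, adjusted p = 0.105) and, for both, the fits without Tdo2high MFs CM replicate 1 (adjusted p = 0.0934 and 0.0685 by limma), without Tdo2high MFs CM replicate 3 (0.103 and 0.0779) and without control CM replicate 3 (0.0890 and 0.0707).

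SNAIL and TWIST are short-lived proteins. A list for the phosphorylation and ubiquitin-dependent turnover of SNAIL, TWIST and ZEB proteins had 20 tested genes. Which of these proteins a gene of the list acts on in this line was not tested. Siah1a, a ubiquitin ligase, was the 1 called (5%, under the 7.41% of all tested genes), at 12.5 ± 0.329 FPKM with Tdo2high MFs CM and 10.3 ± 0.682 FPKM with control CM (SD, n = 3 each; log2 fold change 0.25, adjusted p = 0.0167 by limma). The call of Siah1a ended in 4 of 16 alternatives, which were the fit of all genes with no filter (adjusted p = 0.0610 by limma) and the fits without control CM replicate 1 (0.0573), Tdo2high MFs CM replicate 1 (0.0557) or Tdo2high MFs CM replicate 2 (0.0585). Gsk3b, the kinase that marks SNAIL for degradation, had a log2 fold change of 0.06 (adjusted p = 0.311 by limma). The most abundant genes of this list, Ctdsp2 (-0.02), Psmd14 (0.04) and Cops2 (0.06), did not pass. Protein levels were not measured.

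A list of epithelial genes that these factors are known to repress, together with epithelial regulators, was in part near 0 and in part abundant with either medium. Of 29 with values, 16 did not reach the level for testing, 14 of them below 1 FPKM in every library, and 13 were tested. Cdh1 was listed at 0 in all 3 libraries with Tdo2high MFs CM, against 0.02, 0.02 and 0.01 FPKM with control CM, and Epcam did not exceed 0.11 FPKM. Spint2, a membrane protease inhibitor, averaged 82.1 FPKM with Tdo2high MFs CM and 82.3 FPKM with control CM, and the tight junction gene Tjp1 72.7 ± 0.252 FPKM with Tdo2high MFs CM and 74.3 ± 0.551 FPKM with control CM (SD, n = 3 each). None of the 13 tested genes passed by limma, where 7.41% of all tested genes did, and the median log2 fold change was -0.03. Of the 13, 4 had an unadjusted p under 0.05, 2 higher and 2 lower, where 23.7% of all tested genes had one. The simple keratin Krt18 averaged 378 ± 4.66 FPKM with Tdo2high MFs CM and 356 ± 11.3 FPKM with control CM (SD, n = 3 each; adjusted p = 0.121 by limma), and its partner Krt8 277 ± 12.4 FPKM with Tdo2high MFs CM and 272 ± 9.16 FPKM with control CM. The line thus held vimentin and simple keratin mRNA together, without E-cadherin or N-cadherin mRNA above 0.06 FPKM. The ratio of Vim to Krt18 was 3.237, 3.276 and 3.203 with Tdo2high MFs CM, against 3.45, 3.54 and 3.75 with control CM, with no overlap (exact two-sided permutation test, p = 0.1, adjusted over 7 ratios 0.175). Krt18 passed when control CM replicate 2 was left out (adjusted p = 0.0461 by limma).

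Of the other cadherins, Cdh11, a mesenchymal cadherin, was the 1 expressed, at 15.6 ± 0.165 FPKM with Tdo2high MFs CM and 15.4 ± 0.610 FPKM with control CM (SD, n = 3 each). Cdh3, Cdh4, Cdh5 and Cdh6 did not exceed 0.04 FPKM. The catenin genes Ctnnb1, Ctnnd1, Ctnna1 and Jup and vinculin (Vcl) were expressed. None of the 6 tested genes of this group passed by limma, where 7.41% of all tested genes did. Only Jup had an unadjusted p under 0.05, and was lower, where 23.7% of all tested genes had one. None of the 7 tested intermediate filament, lamin and linker genes other than Vim passed by limma either, where 7.41% of all tested genes did. Of the 7, 4 had an unadjusted p under 0.05, 1 higher and 3 lower, where 23.7% of all tested genes had one. Among these was the lamin gene Lmna, at 147 ± 3.65 FPKM with Tdo2high MFs CM and 157 ± 7.13 FPKM with control CM (SD, n = 3 each; adjusted p = 0.144 by limma), with no overlap.

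Mesenchymal matrix, protease and surface genes went in different directions. Of 37 with values, 20 were tested, 2 rose and 2 fell (20.0% called, against 7.41% of all tested genes), and the median log2 fold change was -0.03. Fn1, the gene of fibronectin, had 263, 259 and 254 FPKM with Tdo2high MFs CM, against 308, 306 and 332 FPKM with control CM (log2 fold change -0.29, adjusted p = 0.00137 by limma). Sparc, a matricellular protein, had 389, 394 and 387 FPKM with Tdo2high MFs CM, against 443, 445 and 438 FPKM with control CM (-0.18). Mmp3, the metalloprotease stromelysin, had 48.4, 52.9 and 50.6 FPKM with Tdo2high MFs CM, against 37.6, 35.7 and 35.5 FPKM with control CM (0.47, adjusted p = 9.97e-05 by limma). The integrin chain Itgb3 rose as well (0.24), at 27.4 ± 0.274 FPKM with Tdo2high MFs CM and 23.0 ± 0.476 FPKM with control CM (SD, n = 3 each). Tpm1, an actin-binding tropomyosin and one of the most abundant of the list, did not pass (-0.03). S100a4, a calcium-binding protein common in motile cells, had a log2 fold change of 0.13 (adjusted p = 0.0549 by limma). The calls of Fn1, Sparc, Mmp3 and Itgb3 ended in none of 16 alternatives, and S100a4 passed under 2 of them. The contractile genes Acta2, Tagln, Myl9 and Cnn1 did not exceed 0.10 FPKM.

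Other transcriptional regulators of EMT were also split. Of 19 tested, 3 rose and 2 fell (26.3% called, against 7.41% of all tested genes). Foxq1, a forkhead factor, had 10.04, 9.39 and 9.77 FPKM with Tdo2high MFs CM, against 7.45, 8.32 and 7.08 FPKM with control CM (log2 fold change 0.32, adjusted p = 0.0109 by limma). Fosl1, an AP-1 subunit, rose by 0.26 and Runx1 by 0.15 on this scale. Sox9 had 14.5, 13.8 and 14.1 FPKM with Tdo2high MFs CM, against 16.1, 18.5 and 16.8 FPKM with control CM (-0.26, adjusted p = 0.0154 by limma), and Tcf3 was the other fall. The most abundant gene of the list, Sox4, had 85.1, 86.2 and 83.8 FPKM with Tdo2high MFs CM, against 89.2, 89.9 and 88.1 FPKM with control CM. Its groups did not overlap, but it did not pass (log2 fold change -0.07, adjusted p = 0.160 by limma). Yap1 (0.03), Tcf4 (0.03), Ets1 (0.03) and Hmga2 (-0.04) did not pass either. The call of Runx1 ended without any 1 library other than control CM replicate 3 (adjusted p = 0.0617 to 0.0880 by limma) and that of Sox9 without Tdo2high MFs CM replicate 2 (0.0586). With no filter on low values the calls of Foxq1, Sox9 and Tcf3 ended (0.0552, 0.0647 and 0.0909), and the count among these genes was 2.

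Among 27 tested ligands, receptors and mediators that induce EMT factors, 5 rose and 1 fell (22.2% called, against 7.41% of all tested genes). The receptor chain gene Osmr, for oncostatin M, had 38.4, 36.0 and 36.3 FPKM with Tdo2high MFs CM, against 29.0, 29.6 and 29.0 FPKM with control CM (log2 fold change 0.33, adjusted p = 0.000481 by limma). Its signalling partner Il6st, the gene of gp130, rose by 0.13 and Stat3, the transcription factor downstream of it, by 0.21 on this scale. Tgfbr1, the type I receptor for TGF-beta, a main inducer of Snai1, had 27.8, 27.4 and 27.1 FPKM with Tdo2high MFs CM, against 22.7, 22.3 and 22.0 FPKM with control CM (0.29, adjusted p = 0.000739 by limma). Egfr rose by 0.20, and the growth factor Pdgfb averaged 7.01 ± 0.495 FPKM with Tdo2high MFs CM and 9.06 ± 0.257 FPKM with control CM (SD, n = 3 each; -0.33). The ligand gene Tgfb1 had 25.1 ± 2.31 FPKM with Tdo2high MFs CM and 25.5 ± 0.934 FPKM with control CM, and its relatives Tgfb2 and Tgfb3 did not pass either. Smad3, a mediator of TGF-beta signals, had 109 ± 2.14 FPKM with Tdo2high MFs CM and 104 ± 1.71 FPKM with control CM (SD, n = 3 each), with no overlap, and did not pass (0.06, adjusted p = 0.193 by limma). The calls of Osmr, Stat3, Tgfbr1 and Pdgfb ended in none of 16 alternatives. That of Egfr ended without any 1 library (adjusted p = 0.0670 to 0.120 by limma) and that of Il6st without any 1 library other than control CM replicate 3 (0.0559 to 0.0939). None of 6 tested regulators of EMT splicing passed by limma, where 7.41% of all tested genes did. Only Rbm47 had an unadjusted p under 0.05, and was higher, where 23.7% of all tested genes had one. The most abundant were Hnrnpm (0.03), Srsf1 (-0.0017) and Mbnl1 (0.03), and Esrp2, an epithelial splicing factor, averaged 0.67 FPKM with Tdo2high MFs CM and 0.81 FPKM with control CM.

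**Figure D4:**
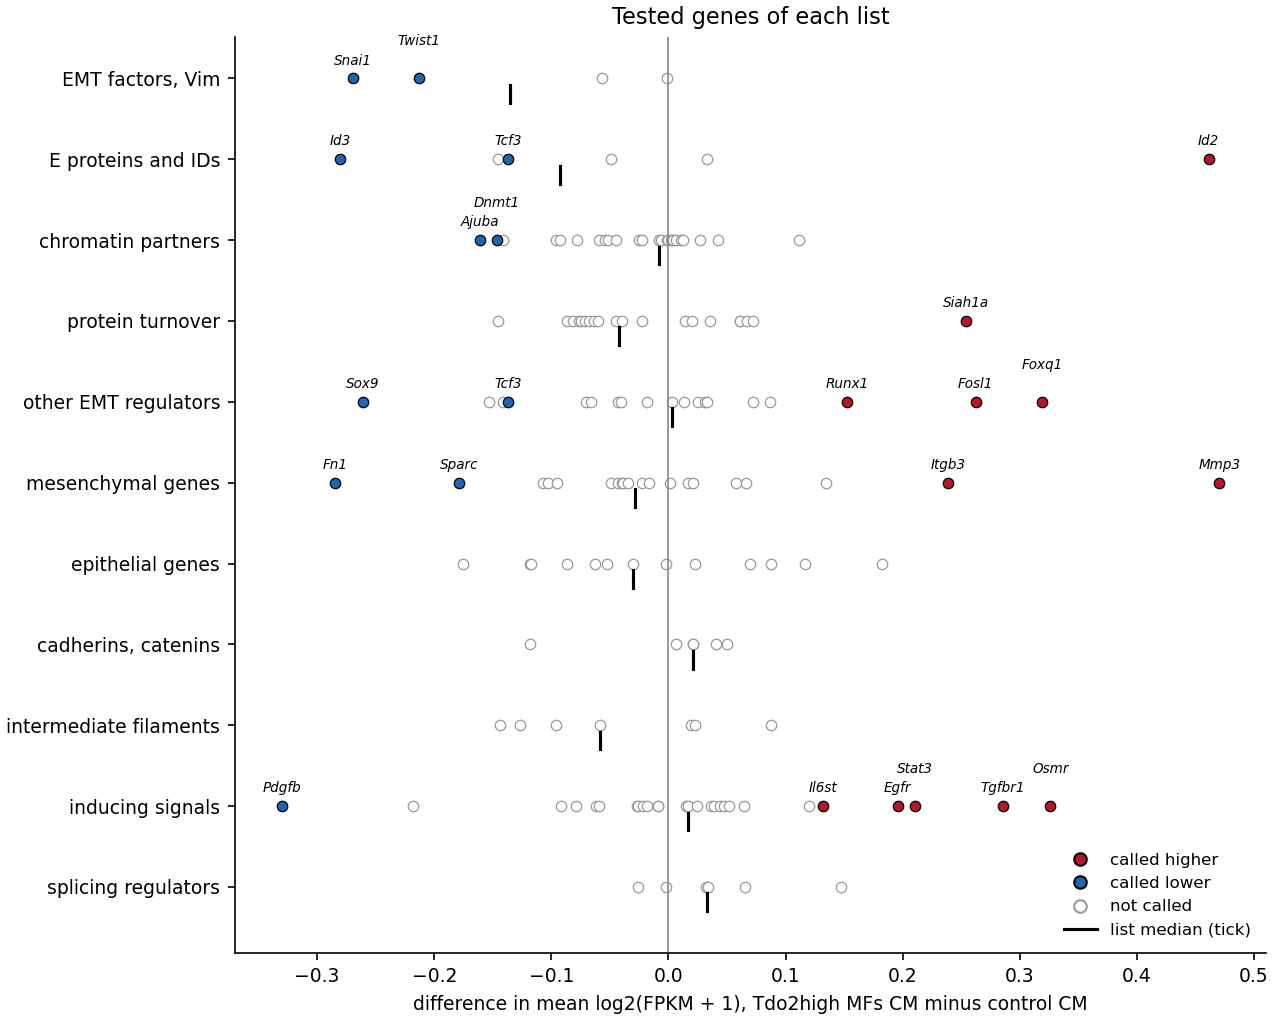
Differences in mean log2(FPKM + 1), Tdo2high MFs CM minus control CM (x axis), of the tested genes of each list (rows); red and blue points passed the adjusted p of 0.05 as higher and lower, open points did not, and the tick under each row is its median. Snai1 (-0.27) and Twist1 (-0.21) lie to the left, while the lists of inducing signals and other EMT regulators hold calls on either side of 0.

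Markers of other cells were examined because the genes described here are also fibroblast genes. Of 10 fibroblast markers with values, 5 were below 1 FPKM in every library, among them the collagen genes Col1a1, at most 0.12 FPKM, and Col1a2, at most 0.01 FPKM. Of the 5 tested, Npnt (0.46) and Pdgfra (0.17) rose and Dcn (-0.48) and Fap (-0.31) fell, and Pdgfrb (-0.03) did not pass. That is 80% called, against 7.41% of all tested genes. The call of Fap ended in 6 of 15 alternatives, among them the fits without control CM replicate 1 or 3 (adjusted p = 0.125 and 0.108 by limma) and without Tdo2high MFs CM replicate 2 or 3 (0.127 and 0.0947). The summed level of the 10 was 125 to 130 FPKM with Tdo2high MFs CM and 114 to 119 FPKM with control CM, and its part in the results was not tested. Myeloid markers, of which Cd68 alone was tested (-0.10, not passed), summed to at most 2.20 FPKM, lymphocyte markers to at most 0.56 FPKM and endothelial markers to at most 0.13 FPKM in any library. Of 10 mammary epithelial markers with values, 4 were tested and none passed by limma, where 7.41% of all tested genes did. Of the 4, only Krt18 had an unadjusted p under 0.05, where 23.7% of all tested genes had one. Beside Krt18 and Krt8, at the levels given above, these were Gata3, at 41.1 ± 1.10 FPKM with Tdo2high MFs CM and 42.3 ± 0.656 FPKM with control CM, and Esr1, at 3.90 ± 0.0529 FPKM with Tdo2high MFs CM and 3.69 ± 0.110 FPKM with control CM (SD, n = 3 each). Krt5, Krt14, Epcam, Cdh1, Elf5 and Foxa1 stayed at or under 0.14 FPKM. Krt8, Krt18 and Gata3 mRNA were thus present with either medium, while mRNA of these other markers was near 0.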

How the data were processed

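RNA of 6 samples was sequenced at BGI from polyA transcripts primed with random hexamers, per the labels' protocols. Per the file headers, the authors deposited FPKM, rounded to 2 decimals, for 16426 genes named by gene number and symbol; the build, GRCm38, is from the submitters' processing notes. For the aligner, quantifier, annotation and use of strand, a name is not given in the sources used. FPKM divides by library size, so a change in abundant genes shifts all others, and low values carry rounding error. Low values (12957 of up to 0.6 FPKM) lay on average 0.221 of a step from a multiple of the smallest value of that gene, so whole reads were not recovered, read depth is unknown, and no counting interval or count model was used.

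Samples were grouped by title. log2(FPKM + 1) of genes with at least 1 FPKM in at least 3 libraries was fitted with limma 3.58.1 in R 4.3.3 (intensity trend, two-sided, Benjamini-Hochberg over all tested genes, threshold 0.05), after the fit was tested on simulated data. A total of 26 symbols that had turned into dates were restored through the gene number. The members and the gene lists were chosen with earlier results of these data known, so no count over them is independent support. The text names all 9 members, from each other list up to 6 called genes by size of change and up to 3 by abundance, and for each tested member the 3 genes most like it; other list genes, the AhR and antioxidant motifs and the ratios were chosen after values were seen. Promoter sequences are from RefSeq (GRCm38.p6). An NF-kB site motif was searched too in a first pass and then left out of the motifs reported. Each fit was repeated with another pseudocount, filter, scaling or variance model, with a replicate block, and without each library in turn. Figures were drawn with matplotlib 3.10.9.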

Additional observations from a re-analysis of the deposited data

How the results depend on the processing

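Snai1 kept its direction and its call in all 16 alternatives and Twist1 in 15 of 16; without 1 library, members called lower numbered 1 to 2. The log2 fold change of Zeb2, never called, was 0.012 under the median of ratios and 0.011 under quantile normalization, and -0.042 to 0.032 without 1 library. The count over all tested genes was 394 with no filter on low values, 525 with no intensity trend and 395 to 559 without 1 library. With no filter on low values the other lists had 2 (other EMT regulators), 1 (chromatin partners), 0 (turnover) and 1 call (E proteins and IDs). Without a trend, chromatin partners had 0 and E proteins and IDs 1, and quantile normalization left 1 in the last list. Without 1 library, other EMT regulators had 2 to 4 calls, epithelial genes 0 to 1, intermediate filaments 0 to 2 (2 without control CM replicate 2), chromatin partners 0 to 3, turnover genes 0 to 2 (2 without control CM replicate 3), and E proteins and IDs 1 to 2.

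Deviations of same-numbered libraries from their group means had r of -0.02, -0.03 and 0.02 across genes, and no library correlated best with its own number. The labels do not say whether the numbers pair the samples, and correlations this near 0 cannot settle it. With the replicate block, 622 genes were called, other EMT regulators had 3 calls, chromatin partners 1 and E proteins and IDs 1, and the 2 members called lower kept their calls.

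Among genes never called, signs turned at values near 0. Spint2 had 0.012 under the median of ratios, Ctnna1 -0.0078 under quantile normalization and -0.0037 on the TPM scale, and Srsf1 0.012 and 0.0061 under the median of ratios and quantile normalization. Without 1 library the log2 fold changes were -0.0091 to 0.055 for Krt8, -0.031 to 0.026 for Spint2, -0.010 to 0.022 for Ctnna1, -0.040 to 0.00048 for Hdac1, -0.0068 to 0.047 for Tgfb3 and -0.019 to 0.017 for Srsf1. The causes were not tested. Precision is set by 3 libraries a group and by rounding at low FPKM.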
